A study of Bos taurus and Sus scrofa with 6 samples.

Results

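The genes described are the cytotoxic effector genes of lymphocytes in prepubertal testis, which are 6 gene symbols chosen by name: NKG7, CTSW, GZMM, GZMA, GZMB and PRF1. The gene tables pair them with 8 identifiers among 19994 genes (16244 distinct symbols) in cattle and with 7 identifiers among 22694 genes (15360 distinct symbols) in pig. The rule that lists these genes uses their names, and their own counts were left out of the clustering and naming of the cells. The study profiled whole testis cell suspensions by droplet-based single-cell RNA-sequencing. The libraries came from 3 Holstein cattle (4.5 months old) and from 3 pigs of mixed breed (3 months old), castrated before puberty and otherwise untreated as far as the labels tell. Species, breed and age differ together, so their effects cannot be told apart. A testis number is repeated across 2 libraries of each species under different codes, and every library was counted as 1 animal.

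Killer lymphocytes, which are CD8 T cells and natural killer cells, store lytic proteins in granules and release them onto a bound target cell. Perforin, encoded by PRF1, opens the membrane of the target, and granzymes are the serine proteases that enter through it. T cells carry the antigen receptor together with the CD3 chains encoded by CD3D, CD3E and CD3G, whereas natural killer cells lack a surface CD3 complex. Lymphocytes of the healthy testis lie in the interstitium, outside the seminiferous tubules in which germ cells develop. Among the genes described, GZMA (a tryptase), GZMB (an aspartate-directed protease) and GZMM (a protease that cuts after long unbranched residues such as methionine) encode granzymes. CTSW encodes cathepsin W, a papain-family protease of T cells and natural killer cells, and NKG7 encodes a membrane protein of cytotoxic granules.

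The member genes of the pig lie on 5 chromosomes of the Sscrofa11.1 assembly, the build named for the pig files, and RefSeq gives each a protein-coding gene there. GZMB spans positions 74705499 to 74708781 of chromosome 7, NKG7 58496089 to 58497827 of chromosome 6, and GZMA 34262495 to 34272084 of chromosome 16. CTSW spans 6446105 to 6450357 and GZMM 77753817 to 77761436 of chromosome 2, and PRF1 spans 73515306 to 73520256 of chromosome 14. The 2 RefSeq loci named GZMA lie 10075 bases apart and had 68.2% identity over 758 aligned coding bases. GZMB lies 15018 bases from GZMH, with 82.0% identity over 737 aligned coding bases, and how the counting treated reads that match both is not given in the sources used here. Cattle sequence was not used here.

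The windows of 300 bases around the start of 4 pig genes are shown because the comparisons that follow turn most on these genes. Each window runs from 250 bases before the annotated start to 50 bases into the gene, 5′ to 3′ on the strand of the gene. Capitals mark matches on either strand to motifs of 3 families of factors that act in lymphocytes. The letters searched for the T-box family were AGGTGT and their reverse complement. For the RUNX family the search used TGTGGT, and for the ETS family it used AGGAAG, each with the reverse complement as well.
GZMB, chr7:74705249-74705548, plus strand: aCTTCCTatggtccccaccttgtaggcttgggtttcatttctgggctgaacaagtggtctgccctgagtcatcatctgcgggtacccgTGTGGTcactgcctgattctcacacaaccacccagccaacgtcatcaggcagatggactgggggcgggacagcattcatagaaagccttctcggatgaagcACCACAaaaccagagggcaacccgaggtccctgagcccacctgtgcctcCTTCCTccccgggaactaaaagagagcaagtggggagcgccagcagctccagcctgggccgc
NKG7, chr6:58495839-58496138, plus strand: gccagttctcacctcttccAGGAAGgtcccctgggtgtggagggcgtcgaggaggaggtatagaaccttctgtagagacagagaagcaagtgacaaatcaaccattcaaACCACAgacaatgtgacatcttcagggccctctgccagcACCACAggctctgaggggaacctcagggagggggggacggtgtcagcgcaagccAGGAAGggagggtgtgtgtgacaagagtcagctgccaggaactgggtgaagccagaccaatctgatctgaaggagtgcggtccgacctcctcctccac
CTSW, chr2:6450308-6450607, minus strand: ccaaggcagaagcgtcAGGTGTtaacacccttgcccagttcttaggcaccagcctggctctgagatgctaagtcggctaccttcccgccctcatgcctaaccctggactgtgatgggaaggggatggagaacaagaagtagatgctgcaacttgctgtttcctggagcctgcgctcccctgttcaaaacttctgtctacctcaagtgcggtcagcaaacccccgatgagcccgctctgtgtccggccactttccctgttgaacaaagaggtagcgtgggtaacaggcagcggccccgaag
GZMM, chr2:77761387-77761686, minus strand: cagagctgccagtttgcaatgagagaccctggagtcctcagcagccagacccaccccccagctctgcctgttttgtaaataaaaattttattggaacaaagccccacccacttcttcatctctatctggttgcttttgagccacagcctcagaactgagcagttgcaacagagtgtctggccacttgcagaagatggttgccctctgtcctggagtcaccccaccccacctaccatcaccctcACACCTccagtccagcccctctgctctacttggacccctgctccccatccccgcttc

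The GZMB and NKG7 windows each held 2 RUNX and 2 ETS matches, and the CTSW and GZMM windows each held 1 T-box match, with no overlap between matches. The RUNX matches of GZMB began 162 and 61 bases before the start, and those of NKG7 141 and 102 bases before it. The T-box match of CTSW began 234 bases before the start and that of GZMM 7 bases before it. Over the 6 genes, with 1 window each, 4 held a RUNX match, 3 an ETS match and 2 a T-box match. Among all 19278 RefSeq promoter windows of the same length, 16.1% held the RUNX letters, 29.5% the ETS letters and 12.2% the T-box letters. These matches are a description of the letters and do not show a bound site.

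In this assay a unique molecular identifier (UMI) is counted once per captured RNA molecule, so levels of different genes can be set side by side without a length correction. Levels are given as counts of the gene relative to all UMIs of a summed group of cells and scaled to a common total (CPM). The cells kept numbered 3444, 8138 and 5900 in cattle 1, 2 and 3 and 3162, 3808 and 2236 in pig 1, 2 and 3. Their median depth was 789, 1683 and 4462 UMIs in cattle and 889, 3856 and 5878 UMIs in pig, so the libraries numbered 1 were the shallowest of both species. Between 9 and 71 barcodes of called cells were shared by pairs of libraries of a species. Intervals and limits given for counts cover counting error only.

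Clusters with lymphocyte markers held 361, 877 and 768 cells of cattle 1, 2 and 3, which were 10.5%, 10.8% and 13.02% of the cells kept. In pig they held 19, 23 and 105 cells, which were 0.601%, 0.604% and 4.70%. Cells called in cattle 1, 2 and 3 had at least 459, 972 and 2644 UMIs. For pig 1, 2 and 3 the calling limit lay at 696, 2444 and 3457 UMIs. In pig, 22, 50 and 145 kept cells had a CD3 UMI, against 37, 416 and 1036 barcodes of at least 500 UMIs. For cattle the counts were 290, 869 and 1147 against 262, 1455 and 2063. How far the calling limit shaped the lymphocyte shares was not tested. CD3E reached 1060 ± 55.5 CPM in the lymphocyte-like cells of cattle and 288 ± 29.1 CPM in those of pig (SD, n = 3), and its mean was at most 56.3 CPM in any other named type of cattle and 3.27 CPM in any of pig. The CD3 genes are among the markers that named these clusters, so their level is a check of the label and no result. Of the lymphocyte-like cells, 57.3%, 82.3% and 97.9% in cattle and 42.1%, 73.9% and 61.0% in pig had a CD3 UMI. With every cell thinned to 500 UMIs, these were 144 of 282, 419 of 877 and 408 of 768 cells in cattle. In pig they were 3 of 19, 10 of 23 and 29 of 105 cells. The differences between animals before thinning are therefore not separated from depth. Lymphocyte-like cells of cattle 3 fell in another cluster (744 of 768 cells) than those of cattle 1 (308 of 361) and cattle 2 (837 of 877).

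CTSW was the most abundant of the 6 genes in lymphocyte-like cells of each cattle animal, whereas GZMB, NKG7 and CTSW overlapped in those of pig. The CTSW level was 9882, 8069 and 5014 CPM in cattle 1, 2 and 3 (7655 ± 2460, SD, n = 3). NKG7 followed at 1821, 1469 and 1271 CPM (1520 ± 278). Every cattle value of CTSW lay above every value of NKG7, and every value of NKG7 above every value of GZMM.

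GZMM, at 776, 479 and 299 CPM (518 ± 241), was the most abundant granzyme of cattle lymphocyte-like cells. GZMA was at 91.1, 149 and 150 CPM (130 ± 33.9), below every GZMM value. GZMB stood at 86.7, 39.4 and 18.9 CPM (48.3 ± 34.8) and PRF1 at 82.4, 14.8 and 10.97 CPM (36.0 ± 40.2). The ranges of GZMB and PRF1 overlapped, and in both genes cattle 1 was the highest animal. A second identifier named GZMA had 0 UMIs in the cells kept, where up to 3 would not be told from 0, and a second identifier named GZMB had 4, none of them in lymphocyte-like cells.

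In pig lymphocyte-like cells GZMB reached 850, 245 and 268 CPM in pig 1, 2 and 3 (454 ± 343, SD, n = 3). NKG7 was at 224, 206 and 264 CPM (231 ± 30.03) and CTSW at 179, 284 and 135 CPM (199 ± 76.5). In pig 1 the GZMB level rests on 19 UMIs, 12 of them in 1 cell, and in pig 2 CTSW was above GZMB. The ranges of these 3 genes overlapped, so the order among them lies within the spread of the animals. GZMA, summed over its 2 identifiers, was at 89.4, 98.0 and 194 CPM (127 ± 58.2), GZMM at 179, 98.0 and 39.2 CPM (105 ± 70.1) and PRF1 at 44.7, 29.4 and 32.6 CPM (35.6 ± 8.08). PRF1 was below GZMA and GZMB in every pig, and its highest value lay above the lowest of GZMM. The values of pig 1 rest on 1 to 19 UMIs of each gene in 19 cells.

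**Figure D1:**
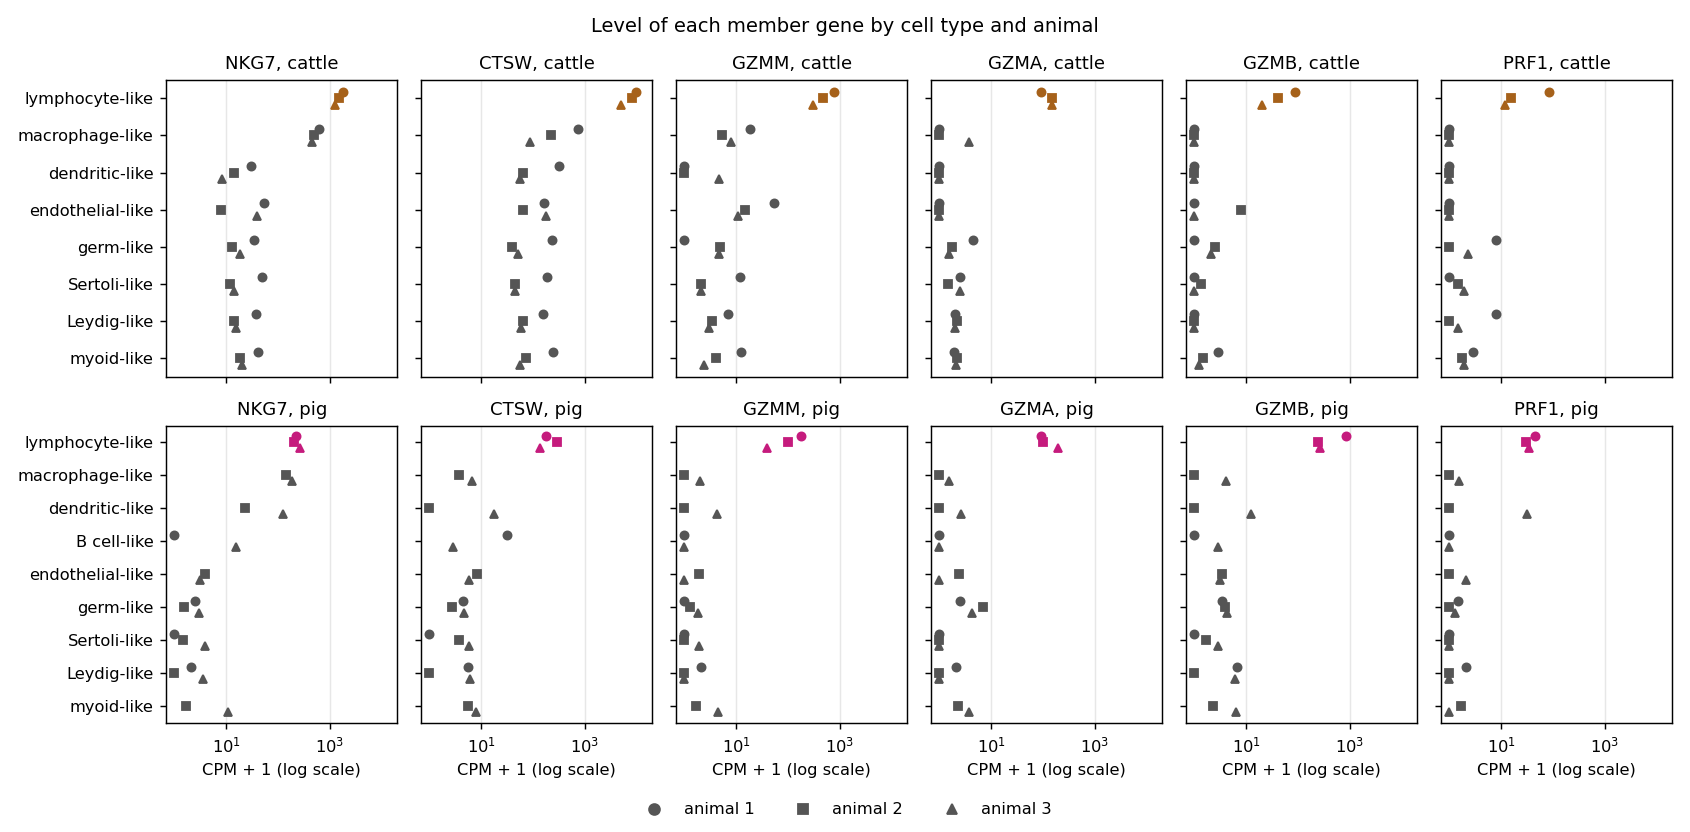
Level of each member gene by named cell type in cattle and pig, as CPM plus 1 on a log axis, with a point for each animal that had at least 10 cells of the type. Lymphocyte-like cells hold the highest mean level of all 6 genes in both species, and NKG7 lies at 452 to 604 CPM in cattle macrophage-like cells.

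Most UMIs of each of the 6 genes in cattle lay in lymphocyte-like cells, whereas in every pig most UMIs of NKG7, CTSW and PRF1 did not. Lymphocyte-like cells held 77.7%, 91.5% and 90.3% of the CTSW UMIs and 72.8%, 84.3% and 81.9% of the NKG7 UMIs of cattle 1, 2 and 3. In pig they held 16.1%, 22.1% and 24.5% of the NKG7 UMIs, 19.05%, 31.9% and 47.4% of those of CTSW and 20%, 42.9% and 43.5% of those of PRF1, and macrophage-like cells held 52.6% and 55.6% of the NKG7 UMIs in pig 2 and 3. No cluster of pig 1 was named macrophage-like. An unnamed cluster held 105 of its cells, was led by HLA-DRA, LYZ and TYROBP and had 98.8 CPM of NKG7 (10 UMIs), and with fewer clusters (Leiden resolution 0.5) the macrophage-like cluster took 105 cells of pig 1. Of the GZMB UMIs of pig 1, 2 and 3, lymphocyte-like cells held 54.3%, 46.3% and 70.7%, and of the GZMA UMIs 20%, 23.3% and 73.5%.

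NKG7 was detected in macrophage-like cells of both species, without a like level of the granzymes. In cattle these cells had 604, 487 and 452 CPM of NKG7 (514 ± 79.6, SD, n = 3), against 21.4 ± 13.5 CPM in Leydig-like and 24.1 ± 21.3 CPM in Sertoli-like cells. Macrophage-like cells of pig 2 and 3 had 141 and 189 CPM of NKG7, beside 2.81 and 5.66 CPM of CTSW. GZMM in cattle macrophage-like cells was 9.68 ± 7.12 CPM and GZMA 0.930 ± 1.61 CPM. CTSW in these cattle cells was at 350 ± 349 CPM (85.1 to 746 CPM), and in cattle 1 its 42 UMIs outnumbered the 34 of NKG7. In pig 3, 143 dendritic-like cells had 124 CPM of NKG7, 31.1 CPM of PRF1 and 16.4 CPM of CTSW.

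The low levels outside lymphocytes are set beside those of empty droplets, which hold free RNA of the suspension and are listed in the cattle files. The part of free RNA in these levels was not tested. Barcodes of at most 50 UMIs held 628, 635 and 488 CPM of CTSW in cattle 1, 2 and 3 and 160, 148 and 156.5 CPM of NKG7. The ratio of CTSW to NKG7 UMIs was 3.93, 4.29 and 3.12 in these droplets. It was 3.78, 4.09 and 3.43 in Sertoli-like and 4.16, 4.73 and exactly 4 in Leydig-like cells, and 5.43, 5.49 and 3.94 in lymphocyte-like cells. In macrophage-like cells it was 1.24, 0.451 and 0.188, below the ratio of each other named type with at least 10 NKG7 UMIs in the same animal. An unnamed cluster of cattle 2 had 10 NKG7 UMIs and no CTSW UMI. A share of cells with a UMI is given beside that of Sertoli-like cells: a UMI of any of the 6 genes was found in 22.6%, 12.6% and 31.6% of Sertoli-like cells of cattle, at a median depth of 1231, 2700 and 6256 UMIs, and in 98.9%, 99.2% and 98.4% of lymphocyte-like cells, at 570, 1305 and 3554 UMIs. In pig 2 and 3 these shares were 1.47% and 5.08% of Sertoli-like cells (median depth 3812 and 4967 UMIs) against 78.3% and 60.0% of lymphocyte-like cells (3847 and 4551 UMIs).

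**Figure D2:**
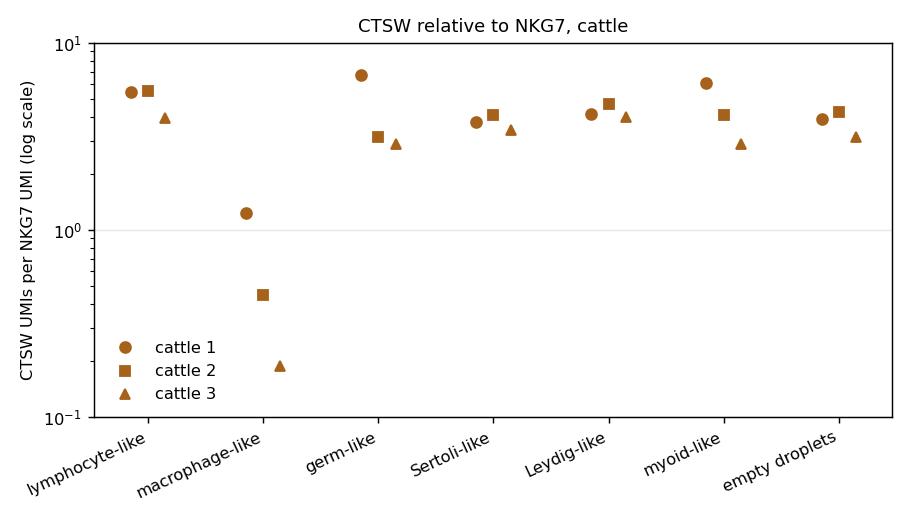
CTSW UMIs per NKG7 UMI on a log axis in cattle, by cell type and in barcodes of at most 50 UMIs (empty droplets), with a point for each animal with at least 10 NKG7 UMIs and unnamed clusters left out. Macrophage-like cells sit at 1.24, 0.451 and 0.188, and the other named types and the empty droplets between 2.86 and 6.70.

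The 6 genes differed in how many lymphocyte-like cells carried them. In cattle 1, 2 and 3 a CTSW UMI was found in 98.1%, 98.5% and 98.2% of lymphocyte-like cells, with a median of 6, 9 and 17 UMIs per cell. NKG7 was found in 66.5%, 82.6% and 93.6% of these cells and GZMM in 36.6%, 38.3% and 48.6%. The share with GZMA was lower, at 4.99%, 14.9% and 21.7%, and GZMB and PRF1 were each found in between 2.05% and 4.99%. In pig 3, the pig with most lymphocyte-like cells, NKG7 was found in 47.6%, CTSW in 30.5%, GZMA in 26.7%, GZMB in 23.8%, GZMM in 14.3% and PRF1 in 9.52% of 105 cells. In pig 3 the 10 cells with most GZMB held 79.3% of its 164 UMIs, and the highest cell held 38. This was not particular to GZMB. The same share was 79.2% for GZMM, 68.9% for GZMA, 53.0% for CTSW and 47.5% for NKG7. It was 100% for PRF1, which only 10 cells carried.

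With all UMIs counted, lymphocyte-like cells mostly carried 2 or 3 of the 6 genes in cattle and fewer in pig. At least 3 of the 6 genes were found in 32.4%, 42.0% and 53.8% of the lymphocyte-like cells of cattle 1, 2 and 3 and in 5.26%, 34.8% and 23.8% of those of pig 1, 2 and 3. None was found in 1.11%, 0.798% and 1.56% of the cattle cells and in 47.4%, 21.7% and 40.0% of the pig cells. Depth moved the counts: with every cell thinned to 500 UMIs, which kept 282 of the 361 cells of cattle 1, at least 3 genes were found in 21.6%, 16.3% and 10.4% of cattle cells. The order of the cattle animals was the reverse of that before thinning, so no order is read from these shares. After thinning, cattle cells mostly carried 1 gene (27.0%, 35.7% and 40.1%) or 2 (48.6%, 43.8% and 40.0%). None was then found in 2.84%, 4.22% and 9.51% of cattle cells and in 63.2%, 65.2% and 72.4% of pig cells. B cell markers summed to 1612 CPM in lymphocyte-like cells of pig 3 without a CD3 UMI and to 123 CPM in those with one. In pig 1 and 2 these sums were 0 to 535 CPM, and in cattle 197 to 360 CPM. The part of B cells in the difference between the species was not tested.

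**Figure D3:**
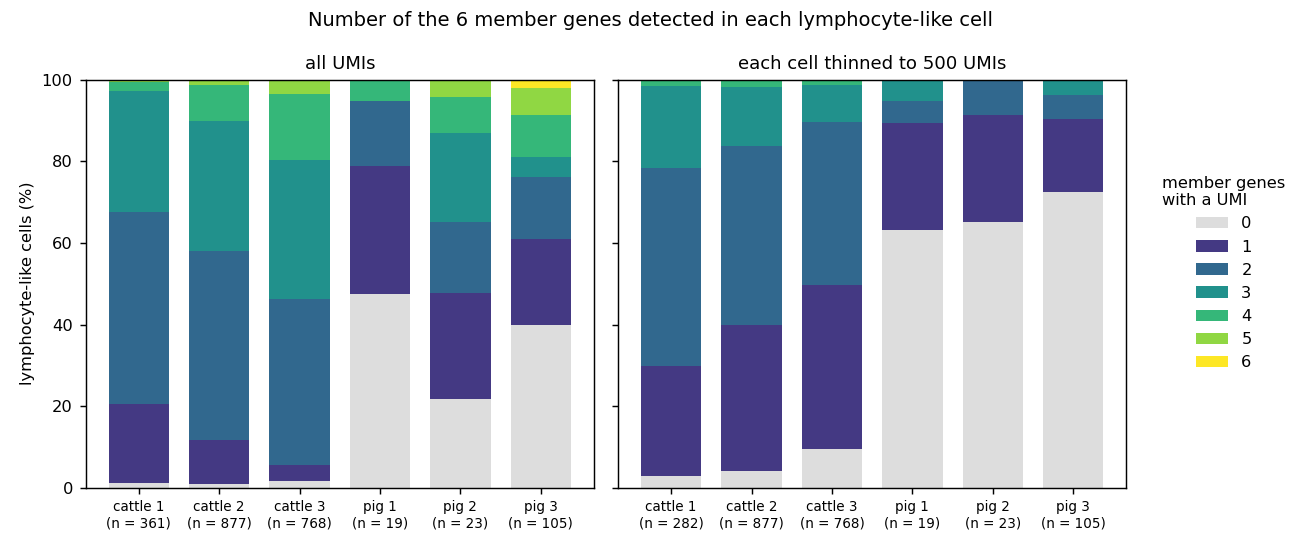
Share of lymphocyte-like cells with a UMI of none to all 6 member genes, by animal, with all UMIs (left) and with every cell thinned to 500 UMIs (right). Cattle cells without any of the genes make up 0.798% to 1.56% before thinning and pig cells 21.7% to 47.4%.

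How often pairs of the genes were found in the same cell is given as a description, for some of the pairs only. In cattle 1, 2 and 3, GZMB was found in 16.7%, 10.7% and 13.8% of lymphocyte-like cells with a GZMA UMI and in 2.33%, 3.35% and 0.998% of those without. After thinning to 500 UMIs these shares were 7.69%, 6.06% and 5.26% against 2.23%, 1.60% and 0.548%, on 1, 4 and 2 cells with both genes. A difference in 1 direction was not particular to this pair. With all UMIs, GZMA was found in 5.30%, 22.0% and 36.2% of cattle cells with GZMM and 4.80%, 10.5% and 8.10% of those without. GZMM was found in 37.0%, 38.8% and 49.3% of those with CTSW and 14.3%, 7.69% and 7.14% of the few without. Both kept their direction in each animal after thinning. The cattle pairs given next differed less than GZMA with GZMB or in both directions. With all UMIs, PRF1 was found in 5.56%, 3.05% and 4.19% of cattle cells with GZMA and 4.96%, 1.88% and 4.16% of those without. GZMB was found in 2.27%, 5.65% and 6.17% of those with GZMM and 3.49%, 3.70% and 1.52% of those without. A CD3 UMI was found in 56.25%, 82.6% and 98.3% of those with NKG7 and 59.5%, 81.0% and 91.8% of those without. In pig 3, GZMB was found in 57.1% of cells with GZMA and 11.7% of those without, and in 33.3% against 7.29% after thinning, on 3 cells with both. CTSW in cells with NKG7 against those without was 48.0% against 14.5% in pig 3 but 7.14% against 7.69% after thinning, so that this pair is not separated from depth.

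The members were then set against the CD3 chains, which the choice of genes asks about. A cell was called CD3-positive with at least 1 UMI of CD3D, CD3E or CD3G, which gave 290, 869 and 1147 cells in cattle and 22, 50 and 145 cells in pig. Of these, 71.4%, 83.1% and 65.6% in cattle and 36.4%, 34.0% and 44.1% in pig were lymphocyte-like, so the gate holds other cells too, most of them in pig. Empty droplets of cattle held 70.0, 83.5 and 113 CPM of CD3E, and the part of free RNA in the gate was not tested. In sums over such cells, fewer cells of a type and less RNA per cell cannot be told apart. The counts of each animal were summed over its CD3-positive and its CD3-negative cells and compared over animals with the quasi-likelihood test of edgeR, adjusted by Benjamini-Hochberg over all genes tested.

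In cattle 5 of the 6 members with enough counts were higher in CD3-positive cells, beside 3.23% of the 14199 genes tested and 0.704% that were lower. Their median log2 fold change was 4.52, against -0.10 over all genes. CTSW was at 5796, 6057 and 2447 CPM in CD3-positive cells of cattle 1, 2 and 3 and at 491, 151 and 51.4 CPM in the CD3-negative cells (log2 fold change 4.51, SE 0.79, adjusted p = 0.0113, edgeR). NKG7 was at 1031, 1091 and 625 CPM against 105, 39.5 and 27.4 CPM (4.15, SE 0.54, adjusted p = 0.00202, edgeR). In neither gene did the 2 sets of sums overlap. The share of all genes without overlap between the gates was not computed in either species. A lack of overlap is therefore not read as particular to the members.

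Among the granzymes, GZMA had the largest difference, with 37.0, 108 and 72.8 CPM in CD3-positive against 5.16, 2.88 and 1.19 CPM in CD3-negative cells (log2 fold change 4.999, SE 0.61, edgeR adjusted p = 0.00142). GZMM was at 431, 338 and 144 CPM against 32.6, 9.82 and 2.12 CPM (4.56, SE 0.88, edgeR adjusted p = 0.0182). GZMB was at 41.1, 29.4 and 9.24 CPM against 3.87, 0.917 and 0.112 CPM (4.53, SE 1.08, edgeR adjusted p = 0.0481). The groups did not overlap in these 3 genes either, and CD3-negative cells of cattle 3 had the lowest value of each. PRF1, at 61.6, 10.1 and 5.78 CPM against 4.84, 0.851 and 0.930 CPM, did not pass the threshold (3.47, SE 1.03, edgeR adjusted p = 0.111). With the animal as a block PRF1 passed as well (3.32, adjusted p = 1.69e-11), and the genes called numbered 1291 higher and 1386 lower in place of 459 and 100. Over its 10 alternatives the adjusted p of PRF1 ran from 1.69e-11 to 0.438.

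The cattle calls leaned on cattle 2, the library with most cells. Without it 2 of the 6 genes, GZMA and NKG7, stayed past the threshold, and CTSW (adjusted p = 0.0846), GZMM (0.133) and GZMB (0.490) did not. GZMB also missed it with library sizes in place of TMM factors (adjusted p = 0.0502) and with doublets kept (0.0705).

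In pig 4 of the 7 identifiers were higher in CD3-positive cells, beside 0.223% of the 15213 genes tested. Their median log2 fold change was 4.11, against -0.20 over all genes. GZMB was at 501, 65.3 and 129 CPM in CD3-positive cells of pig 1, 2 and 3 and at 3.24, 1.66 and 2.84 CPM in the CD3-negative cells (log2 fold change 5.84, SE 0.67, edgeR adjusted p = 0.000729). CTSW was at 71.5, 82.4 and 77.4 CPM against 4.17, 3.31 and 3.56 CPM (4.11, SE 0.44, edgeR adjusted p = 0.000423). CTSW thereby had the smallest relative spread among the pigs, although its level in CD3-positive cells of pig 1 rests on 3 UMIs.

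GZMM was at 95.4, 31.2 and 19.7 CPM in CD3-positive pig cells and at 0.232, 0.214 and 0.826 CPM in the others (log2 fold change 5.84, SE 0.78, edgeR adjusted p = 0.00222). The GZMA identifier ENSSSCG00000016903 was at 23.8, 19.9 and 75.9 CPM against 0.927, 0.535 and 0.619 CPM (5.94, SE 0.69, edgeR adjusted p = 0.000730). The other GZMA identifier, ENSSSCG00000016902, was at 23.8, 2.84 and 8.76 CPM against 0.927, 1.34 and 1.75 CPM and did not pass (2.26, SE 0.78, edgeR adjusted p = 0.774). Of the 77 UMIs of ENSSSCG00000016902 in pig cells, 63 lay in CD3-negative cells, against 26 of the 138 UMIs of ENSSSCG00000016903, and the germ-like cells had 3.40 ± 2.13 CPM of the first and 0.181 ± 0.157 CPM of the second (SD, n = 3). Which of the 2 RefSeq GZMA loci each identifier belongs to is not given in the sources used here.

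NKG7 was at 47.7, 51.1 and 124 CPM in CD3-positive pig cells and at 6.72, 4.12 and 25.3 CPM in the others (log2 fold change 2.57, SE 0.65, edgeR adjusted p = 0.303), and PRF1 at 23.8, 8.52 and 15.3 CPM against 0.927, 0.214 and 1.29 CPM (3.85, SE 0.81, edgeR adjusted p = 0.0943). Neither passed the threshold. The groups did not overlap in either gene, which is not read as particular to them, since the share over all genes was not computed. With the animal as a block both passed (NKG7 2.58, adjusted p = 2.07e-08, PRF1 3.92, adjusted p = 6.71e-05), with 182 genes higher in place of 34. Over 10 alternatives each, the adjusted p ran up to 0.999 for both. Without pig 1 only CTSW and GZMB stayed past the threshold, with GZMM at an adjusted p of 0.161 and ENSSSCG00000016903 at 0.0622, and the latter also missed it without pig 3 (0.0662).

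**Figure D4:**
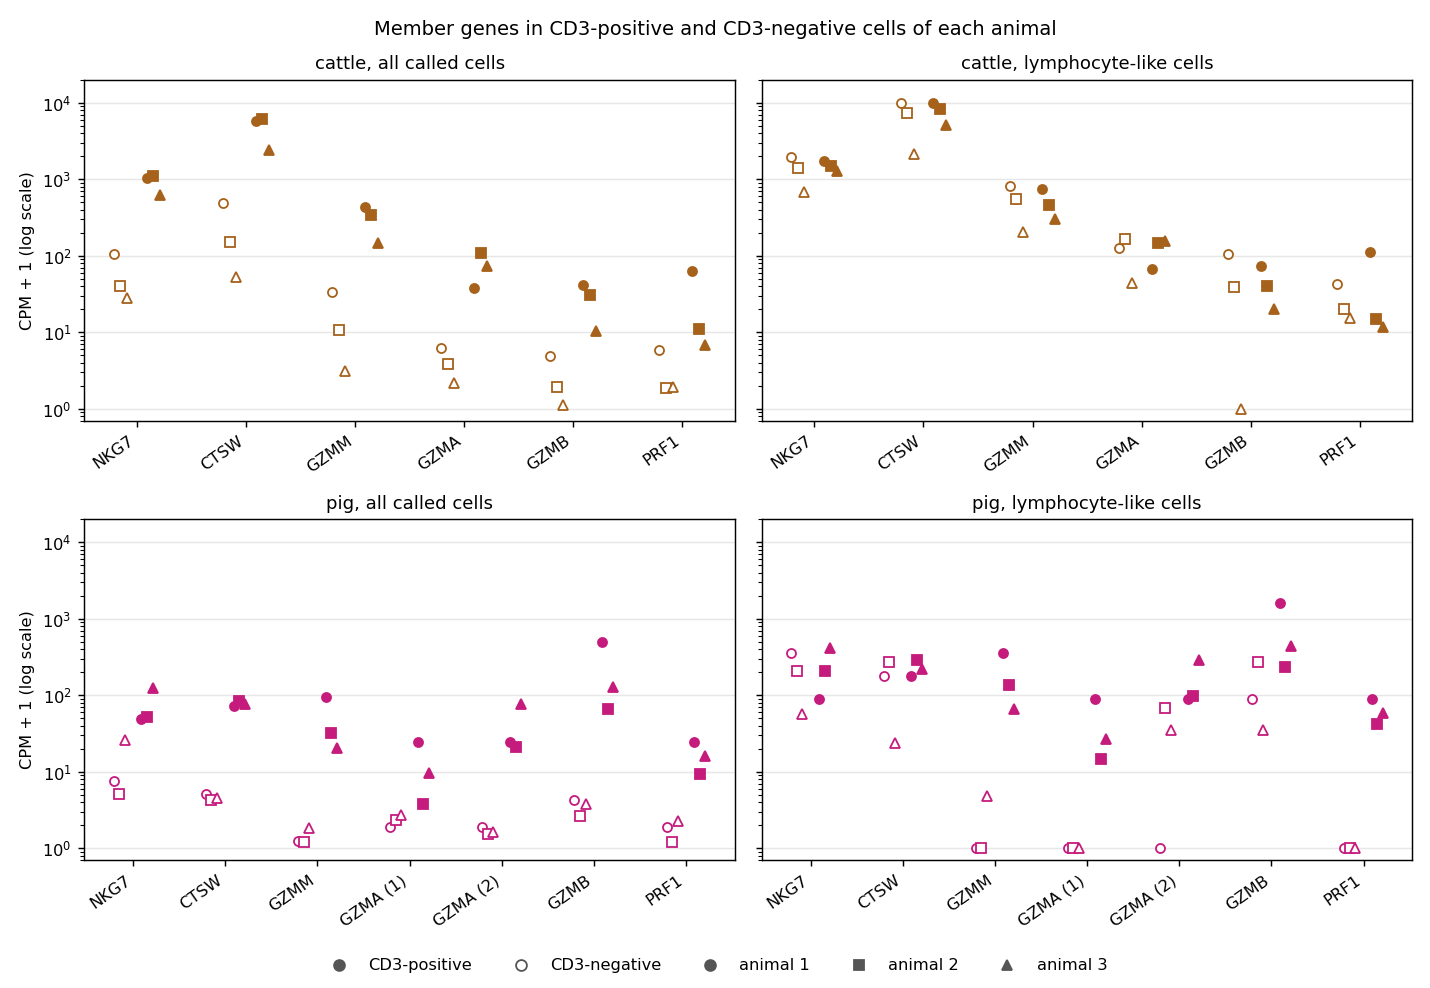
CPM plus 1 of each member in summed CD3-positive (filled) and CD3-negative (open) cells on a log axis, with a point for each animal. Panels show all called cells (left) and lymphocyte-like cells alone (right). GZMA (1) is ENSSSCG00000016902 and GZMA (2) is ENSSSCG00000016903. Among all called cells every filled point lies above the open points of the same gene and species. Among lymphocyte-like cells the filled and open points of NKG7 and CTSW overlap in both species.

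The share of cells with a UMI of any of the 6 genes was 80.7%, 89.0% and 80.5% of CD3-positive cells in cattle 1, 2 and 3 (83.4% ± 4.84, SD, n = 3) and 23.4%, 14.3% and 31.2% of CD3-negative cells (23.0% ± 8.50). In pig it was 31.8%, 46.0% and 53.8% (43.9% ± 11.14) against 2.04%, 4.26% and 20.3% (8.87% ± 9.98). The groups did not overlap in either species, and a two-sided exact permutation test gave p = 0.1 in each, the smallest that 3 against 3 allows. This test took the 2 groups as independent, although both came from the same animals. Thinned to 500 UMIs the shares were 86.2% against 11.5% in cattle and 27.8% against 1.70% in pig. The gate was then read from the thinned counts, so cells that lost their CD3 UMIs were counted as CD3-negative. With at least 2 CD3 UMIs the share was 83.3% of 18 cells in pig 2, 75.9% of 79 in pig 3 and 0 of 2 cells in pig 1, too few to read (53.1% ± 46.1, exact permutation p = 0.4).

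The same comparison was made among lymphocyte-like cells alone. In cattle no member was called between CD3-positive and CD3-negative lymphocyte-like cells by edgeR, beside 0% of the 8323 genes tested called higher and 0.0481% called lower, and DESeq2 called no gene. None of the 6 had an unadjusted p under 0.05, which 221 of all genes had. CTSW was at 9857, 8214 and 5084 CPM in CD3-positive and at 9917, 7368 and 2119 CPM in CD3-negative lymphocyte-like cells of cattle 1, 2 and 3 (log2 fold change 0.39, SE 0.43, edgeR adjusted p = 0.9997). NKG7 was at 1729, 1481 and 1286 CPM against 1954, 1411 and 682 CPM (0.30, SE 0.37). Cattle lymphocyte-like cells thus held these 2 genes whether or not a CD3 UMI was found in them, with overlapping ranges. A cell without a CD3 UMI need not lack CD3 RNA. In cattle 3, 752 of 768 lymphocyte-like cells had a CD3 UMI, and 408 of 768 after thinning to 500 UMIs. The comparison therefore cannot separate cells with CD3 RNA from cells without it. The low values of cattle 3 in CD3-negative cells come from 16 cells. Of the 6 dendritic cell markers, PLD4 and IRF8 were higher in CD3-negative cells of that animal, on 14 and 6 UMIs. CCR9 went the other way, at 9.83 CPM (28 UMIs) in CD3-positive and 0 UMIs in CD3-negative cells. FLT3, SPIB and CLEC9A were at 0 in both. The 6 genes of the list summed to 47.7 CPM in CD3-positive and 290 CPM in CD3-negative cells. The sums were 58.8 against 31.7 CPM in cattle 1 and 78.2 against 72.0 CPM in cattle 2, and the part of dendritic cells was not tested. FCER1A, named after its values were seen, was among the 4 genes called lower in CD3-positive cells. All 33 of its UMIs lay in the CD3-negative cells of cattle 3, so this call rests on 1 library. With the animal as a block CTSW passed (0.58, adjusted p = 0.000124), and its adjusted p ran from 0.000124 to 0.9999 over 8 alternatives. GZMA (0.27), PRF1 (0.09), GZMM (0.04) and GZMB (-0.31) had log2 fold changes smaller than their SE. The median over the 6 was 0.18, against 0.21 over all genes.

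In pig lymphocyte-like cells the differences of the members had a median of 2.32, against 0.06 over all genes, and none passed the threshold in edgeR's test. The share called was 0.0154% higher and 0.108% lower of 6496 genes, 5 of the 7 identifiers and 227 of all genes had an unadjusted p under 0.05, and DESeq2 called no gene. GZMM was found with 37 UMIs in CD3-positive and 1 UMI in CD3-negative lymphocyte-like cells, a ratio per total UMIs of 26.0 with a 95% counting interval of 4.38 to 1054 (log2 fold change 4.61, SE 1.32, edgeR adjusted p = 0.117). PRF1 was found with 24 UMIs against 0, at least 5.62-fold higher with 3 counts over the group as the limit (edgeR adjusted p = 0.242). GZMB was at 1615, 234 and 444 CPM against 89.2, 273 and 34.1 CPM (2.32, SE 0.81, edgeR adjusted p = 0.374), with pig 2 in the opposite direction. With the animal as a block GZMM (4.19, adjusted p = 0.0221) and GZMB (2.32, adjusted p = 0.00930) passed.

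NKG7 in pig lymphocyte-like cells was at 89.7, 206 and 421 CPM in CD3-positive and at 357, 205 and 56.9 CPM in CD3-negative cells (log2 fold change 0.97, SE 0.77, edgeR adjusted p = 0.9998), and CTSW at 179, 289 and 221 CPM against 178, 273 and 22.8 CPM (1.10, SE 0.80, edgeR adjusted p = 0.9998). Both overlapped between the groups, and pig 3 had the largest difference in favour of CD3-positive cells. B cell genes moved with the gate in that animal: the 7 markers of the B cell list summed to 123 CPM in CD3-positive and 1612 CPM in CD3-negative lymphocyte-like cells of pig 3, with 6 of 7 detected in each. In pig 1 they summed to 0 and 535 CPM (0 and 6 UMIs) and in pig 2 to 13.7 and 0 CPM (1 and 0 UMIs). MS4A1 and CD79B, B cell surface genes named here after their values were seen, were among the genes called lower in CD3-positive cells, and the part of B cells in the differences of the members was not tested. Any of the 6 genes was found in 76.8% ± 13.1 of CD3-positive and 41.6% ± 10.9 of CD3-negative pig lymphocyte-like cells (exact permutation p = 0.1, the smallest possible), and in 39.3% against 28.5% after thinning (exact permutation p = 0.3). As the gate was read again from the thinned counts, the groups after thinning are not the same cells as before.

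The levels in CD3-positive cells differed between the species in opposite directions for different members. CTSW was 61.8-fold higher in cattle (4767 ± 2013 CPM) than in pig (77.1 ± 5.42 CPM, SD, n = 3 each), and NKG7 12.3-fold higher (916 ± 253 against 74.3 ± 43.1 CPM). GZMM was 6.24-fold higher in cattle (304 ± 147 against 48.8 ± 40.8 CPM), and GZMB 8.72-fold higher in pig (232 ± 235 against 26.6 ± 16.1 CPM). The animals of the 2 species did not overlap in these 4 genes, where the two-sided exact permutation test gave its smallest possible p of 0.1 (0.15 after Benjamini-Hochberg adjustment over 6 genes). The share of all genes without overlap between the species was not computed, so the lack of overlap is not read as particular to the members. GZMA (72.7 ± 35.7 against 51.7 ± 31.2 CPM) and PRF1 (25.8 ± 31.1 against 15.9 ± 7.68 CPM) overlapped, with exact permutation p = 0.5 and 0.9. Without pig 1, whose 22 CD3-positive cells held 21 GZMB UMIs, GZMB was 3.66-fold higher in pig and GZMM 11.9-fold higher in cattle, and without pig 3 NKG7 was 18.5-fold higher in cattle. The species did not overlap in these 3 genes then either. Annotation, alignment and the share of other cells in the gate differ between the species as well, and their part was not tested. In cells of at least 1000 UMIs GZMM overlapped too (3.58-fold) and GZMB was 18.3-fold higher in pig. With at least 2 CD3 UMIs GZMB overlapped (2.94-fold higher in pig), where pig 1 had 2 cells and no GZMB UMI.

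**Figure D5:**
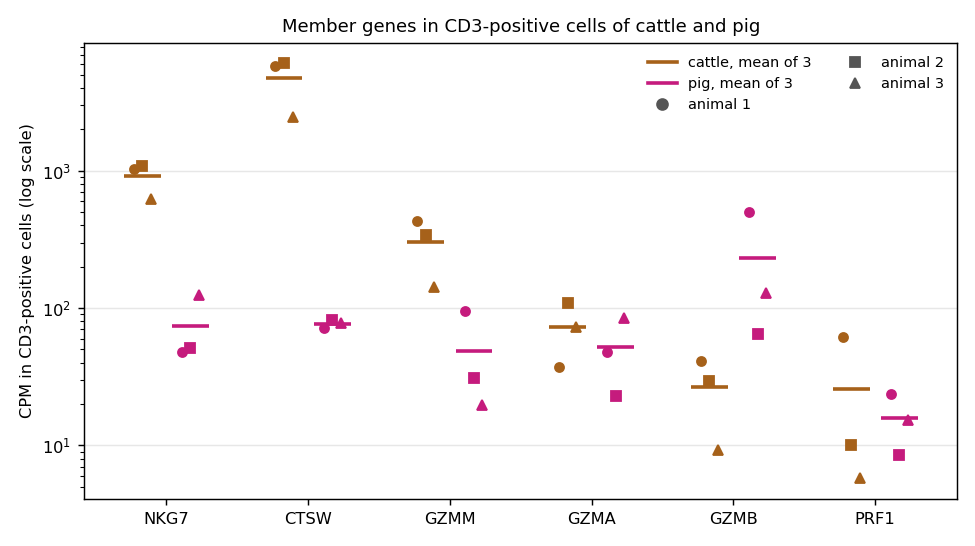
CPM of the 6 member genes in CD3-positive cells of cattle and pig on a log axis, with a point for each animal and a bar at the mean of 3. The cattle points lie above the pig points for NKG7, CTSW and GZMM, below them for GZMB, and among them for GZMA and PRF1.

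Without the animal as a block, the excess in CD3-positive over CD3-negative cells did not pass a test of a difference between species for any member. This was edgeR's interaction test over the 12835 symbols tested in both, and it left the pairing within the animal unused. The share called was 0.0545% higher in cattle and 0.00779% higher in pig, no member had an unadjusted p under 0.05, and DESeq2 called no member. NKG7 came nearest, with a log2 excess larger in cattle by 1.81 (SE 0.89, adjusted p = 0.723). With the animal as a block it passed (2.101, adjusted p = 9.06e-08), with 581 genes called higher and 43 lower in place of 7 and 1, and among barcodes of at least 500 UMIs its direction turned (-0.26, adjusted p = 0.9999). Its adjusted p was 0.631 or more in the other 12 alternatives without the block. NKG7 was also the member with the highest level in pig macrophage-like cells, of which 0 of 96 in pig 2 and 9 of 326 in pig 3 were CD3-positive, and their part in this difference was not tested. GZMB (-1.13, SE 1.201) and GZMM (-0.85, SE 1.12) had a larger excess in pig and CTSW (0.61, SE 0.86) and GZMA (0.66, SE 0.83) in cattle, each by less than its SE.

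Other genes of killer lymphocytes were read in lists named by function, first in cattle. Of the granule list 3 of 10 tested genes were higher in CD3-positive cells: FASLG, the ligand of a death receptor (log2 fold change 4.78), SRGN, which encodes the proteoglycan that packs granules (2.58), and the granzyme gene GZMK (5.15). GZMK was at 4.23 ± 3.46 CPM in CD3-positive cattle cells, under the mean of each of the 6 members, and SRGN at 344 ± 102 CPM. Of the natural killer and innate receptor list 8 of 12 were higher, with KLRD1, which encodes CD94 (5.04), CD244 (4.86), NCR3 (3.66) and the adaptor gene FCER1G (3.12) at the smallest adjusted p. Of the T cell receptor list 7 of 9 were higher, among them TRAT1 (4.62), CD247 (3.66), CD8B (4.42) and the kinase gene LCK (4.42).

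Cytokine and chemokine genes were higher in 8 of 10 cases in cattle, led by CXCR6 (4.96), IFNG (5.09), CCL5 (4.70) and CXCR3 (4.34). CCL5, a chemokine stored by effector cells, reached 4425 ± 1849 CPM in CD3-positive cattle cells, a level near that of CTSW. Of the effector transcription factors 4 of 6 were higher, with TBX21 (5.06), which encodes the T-box factor T-bet, ID2 (2.87), STAT4 (4.93) and ZNF683 (3.74). Each list median lay between 1.51 (granule list) and 4.03 (T cell receptor list), against 4.52 for the members.

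In pig 2 of 11 granule genes were higher in CD3-positive cells, GNLY, which encodes the membrane-lysing granulysin (4.38), and GZMK (4.52). GNLY was at 324 ± 172 CPM against 12.4 ± 4.80 CPM and GZMK at 54.8 ± 36.1 CPM against 1.44 ± 0.606 CPM (SD, n = 3). Of the T cell receptor list 6 of 12 were higher, with LCK (5.21), CD5 (5.35), CD8A (5.03) and TRAT1 (5.21) first. KLRK1 (4.33) and CD226 (4.47) were the 2 of 9 receptor genes called, and CCL5 (4.16), IFNG (5.29) and IL2RB (4.06) the 3 of 9 cytokine and chemokine genes. CTLA4 (5.85) was called among 10 naive, memory and regulatory genes. Of the 8 transcription factor genes EOMES came nearest to the threshold (4.08, edgeR adjusted p = 0.0541).

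Within pig lymphocyte-like cells, where 18 of 49 genes of these lists had an unadjusted p under 0.05 and none was called, GZMK had a log2 fold change of 4.68 between CD3-positive and CD3-negative cells (edgeR adjusted p = 0.0847), with 209 ± 138 against 11.4 ± 19.7 CPM. GNLY was there at 817 ± 546 CPM in CD3-positive and 1548 ± 1176 CPM in CD3-negative cells (-0.52, SE 0.68, edgeR adjusted p = 0.9998). This difference was smaller than its SE, so no direction is read from it. The cattle counterpart had 1 of 48 genes at an unadjusted p under 0.05 and none called.

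Genes whose level was most like that of the members were sought among symbols with a UMI in at least 5% of lymphocyte-like cells. The genes compared were thus picked from the cells where the members are highest. CCL5 and LCK are also among the markers that named these clusters. The ranking is therefore a description and no result about shared cells. In cattle, the Pearson correlation of log2 levels with the mean of the members was taken over 24 sums of a cell type in an animal, for 2985 genes. It was highest for CCL5 (0.968), SH2D1A (0.939), HOPX (0.932), IFNG (0.930), LAX1 (0.928) and LCK (0.927), beside 2 identifiers named GIMAP7 (0.942 and 0.935). In pig, over 22 sums and 6081 genes, it was highest for SH2D1A (0.979), CD8A (0.979), TRAC (0.970), LCK (0.968) and CD226 (0.966), and GNLY (0.961), GZMK (0.951) and EOMES (0.930) were among the first 10. The sums of an animal share a library. Over single lymphocyte-like cells CCL5 was first in both species, with a mean correlation over animals of 0.465 in 2006 cattle cells and 0.574 in 147 pig cells, where depth is shared by all genes of a cell.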

How the data were processed

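Droplet libraries of dissociated testis from 3 cattle and 3 pigs were used, with each library counted as 1 animal. Alignment by the authors was with Cell Ranger (version 2.1.0 in the submitters' processing notes) to ARS-UCD1.2 or Sscrofa11.1, and the deposited values are raw UMI counts for each gene in each barcode and were not normalized. The header of the pig counts names another software version, and its part in the comparison of species was not tested. The files of cattle hold all 737280 barcodes and the pig files 6220, 22920 and 8808 barcodes of at least 500 UMIs, with 5805223 to 53325608 UMIs per library.

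From these counts, cells were called by the rule of Cell Ranger 2 (the 99th percentile of the 3000 largest totals, divided by 10), and cells under 200 genes were left out. Scrublet in scanpy 1.11.5 scored doublets, and the top 0.8% per 1000 cells of a library were left out, since its automatic threshold marked as few as 1 cell in a library. Clusters came from 2000 variable genes, 30 principal components, 15 neighbours and Leiden resolution 1, without the members and mitochondrial genes, and were named from marker lists with at least 3 markers 2-fold above the median cluster. Clusters with as many leading genes of another type, or sharing 3 or more of their leading genes with germ-like cells, were given no name, which was decided after the clusters had been seen. No limit was set on mitochondrial UMIs (1.47% to 4.21%).

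Counts were summed per animal over CD3-positive and CD3-negative cells, and genes with at least 10 counts were tested with edgeR 4.0.16 (quasi-likelihood test, TMM) in R 4.3.3, with Benjamini-Hochberg adjustment at 0.05. DESeq2 1.42.0 was an alternative, and the tests were tried on simulated counts. CD3D, CD3E and CD3G were left out of the counts of genes called. The 2 sums are paired within the animal. Their deviations from the group means correlated at 0.548 or more in cattle and 0.349 or more in pig, and at 0.131 or more among lymphocyte-like cells, so a fit with the animal as a block was an alternative. Shares and levels were compared over animals with two-sided exact permutation tests, and likeness was computed on log2(CPM + 10). The permutation tests of CD3-positive against CD3-negative shares did not use the pairing within the animal. Promoter windows came from the RefSeq annotation of Sscrofa11.1, read with Biopython 1.88.

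The members were named in every comparison. From each other list up to 4 genes with the smallest adjusted p were named, with others where a small count needed names. The result of the list of naive, memory and regulatory genes in cattle is not reported here. The members, the lists and the tests were chosen with earlier results of these data known. Other settings tried were library size scaling, no filter on low counts, at least 2 CD3 UMIs, barcodes of at least 500 UMIs, doublets kept, Leiden resolutions 0.5 and 2, thinning, and leaving out each animal (for the comparison of species, chosen after seeing the data).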

Additional observations from a re-analysis of the deposited data

Results flagged for a closer look

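The excess of NKG7 in CD3-positive over CD3-negative cells differed between cattle and pig when the animal was a block in edgeR's quasi-likelihood interaction test, with Benjamini-Hochberg adjustment. The log2 difference was 2.101 with an adjusted p of 9.06e-08, and without the block it was 1.81 with an adjusted p of 0.723. The direction turned among barcodes of at least 500 UMIs (-0.26, adjusted p = 0.9999), and the block raised the genes called from 7 higher and 1 lower to 581 and 43. The excess was 4.15 in cattle and 2.57 in pig, and it was positive in 3 of 3 animals of each species.

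CTSW was present in barcodes that no comparison of cells used. Barcodes of at most 50 UMIs held 627.6 CPM of CTSW in cattle 1, 634.7 CPM in cattle 2 and 487.6 CPM in cattle 3, which is 637, 1042 and 405 UMIs. Lymphocyte-like cells of the same animals held 9882, 8069 and 5014 CPM.

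The second cattle identifier named GZMB had 4 UMIs in the cells kept, above the 3 counts that could not be told from 0, and none of them lay in CD3-positive cells. It was not in the main fit of cattle alone, since it had fewer than 10 counts, and was summed with the first identifier in the comparison of species.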

How the results depend on the processing

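With the animal as a replicate block, members called higher numbered 6 of 6 in cattle and 6 of 7 in pig, 1 and 2 among lymphocyte-like cells and 1 in the comparison of species. Over all genes the block gave 1291 higher and 1386 lower for cattle, 182 and 148 for pig, 6 and 7 among cattle and 15 and 15 among pig lymphocyte-like cells, and 581 and 43 between species. It changed the call of no member other than those given beside the results.

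Leaving out 1 animal gave 2 to 6 members higher in cattle and 2 to 5 in pig, and 0 in the other comparisons. Genes higher and lower then ranged over 164 to 604 and 0 to 194 (cattle), 4 to 62 and 0 to 16 (pig), 0 to 3 and 0 to 9 (cattle lymphocyte-like), 0 to 2 and 0 to 4 (pig lymphocyte-like), and 0 to 5 and 0 to 1 (between species). A comparison left with 2 animals keeps its spread from those 2.

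Other settings moved these counts as well. With at least 2 CD3 UMIs, genes higher and lower were 984 and 1087 (cattle), 147 and 6 (pig), 1 and 9 (cattle lymphocyte-like), 18 and 35 (pig lymphocyte-like, with 2 members higher, GZMM and PRF1) and 55 and 14 (between species). DESeq2 gave 155 lower in cattle, 53 higher in pig, 0 lower in cattle and 0 and 0 in pig lymphocyte-like cells, and 27 and 8 between species. With library size in place of TMM, pig lymphocyte-like cells had 9 higher and 15 lower, with 2 members higher (GZMM and GZMB), and the comparison of species 1 higher. No filter on low counts gave pig 90 higher and 11 lower, with 2 higher among cattle lymphocyte-like cells, and 0 higher with 2 lower among those of pig, and 1 higher between species. Barcodes of at least 500 UMIs gave 149 higher in pig, with 7 members, and 1 higher and 2 lower between species. With doublets kept 30 genes were lower in cattle and 1 higher between species.

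Shares with any member moved to 97.9% in CD3-positive cattle cells with at least 2 CD3 UMIs, and after thinning to 11.5% in CD3-negative cattle and 27.8% in CD3-positive pig cells. Leaving out 1 animal gave 80.6% to 84.8% and 18.8% to 27.3% in CD3-positive and CD3-negative cattle cells and 38.9% to 49.9% and 3.15% to 12.3% in pig. PRF1 was 0.888-fold in cattle relative to pig in cells of at least 1000 UMIs, the reverse of the main direction (1.62-fold). Leaving out 1 animal, an alternative chosen after seeing the data, moved PRF1 between 0.498-fold (without cattle 1, the direction reversed) and 2.25-fold. At Leiden resolution 2 pig macrophage-like cells numbered 194, of which 193 were from pig 3, with 252 CPM of NKG7 and 1.69 CPM of CTSW, and at resolution 0.5 they numbered 530 from 3 animals, with 142 and 3.69 CPM. The causes of these changes were not tested. Of the values for single members, 278 kept their side of the threshold, 23 newly passed it and 8 no longer did. Doublets were not clustered, so lymphocyte-like cells with doublets kept were not run. The pig comparisons rest on few cells, with 22, 50 and 145 CD3-positive cells in pig 1, 2 and 3, and pig 1 was also the shallowest pig library.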
